A study of Homo sapiens with 3 samples.

Results

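The expression of 4 CXC chemokine genes and 3 cytokine genes of the IL6 family was followed in MDA-MB-231 cells after a short exposure to estradiol or tamoxifen. The genes were CXCL8, CXCL1, CXCL2, CXCL3, IL6, LIF and IL11. Every probe set annotated to exactly 1 symbol, that symbol being one of the 7, was taken, which gave 11 of the 54675 probe sets on the array, for 7 of 19775 named genes. The genes were selected on the differences between these same 3 columns, so their values are a description and no test was made of them. MDA-MB-231 is an established human breast cancer line of basal type, usually counted as lacking the estrogen receptor. All cells spent 4 h in medium with 10% charcoal-stripped serum, which is depleted of steroids, and were then treated for 3 h. The vehicle culture received 0.1% ethanol, the estradiol culture 1 µM of the main natural estrogen, and the tamoxifen culture 1 µM of an antiestrogen used against breast cancer. By the labels each group held 1 array, so the spread between replicates is unknown and no p-value is given. Early transcript changes under tamoxifen are the subject named in the series title.

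CXCL8, CXCL1, CXCL2 and CXCL3 are small secreted proteins that draw neutrophils. They act through the receptor CXCR2, and CXCL8 also acts through CXCR1. IL6, LIF and IL11 are cytokines that bind a receptor of their own (IL6R, LIFR, IL11RA) and signal through the shared subunit IL6ST, also called gp130, to JAK kinases and STAT3. In many epithelial and tumour cells the CXC genes and IL6 are inducible by NF-kB, a transcription factor freed by inflammatory signals. Basal breast cancer lines are known to secrete CXCL8 and IL6.

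The regions before the start sites are shown because several of the genes were high in the same columns. RefSeq windows (GRCh38.p14) of 300 bases, 250 before the start site and 50 after it, were held for 6 of the 7 genes; LIF had no entry. The 125 bases just before the start site are printed 5′ to 3′ on the gene's own strand. Capitals mark the NF-kB-type motif GGANTTTCC, or in IL11 the AP-1 motif TGANTCA.
CXCL8 (chr4:73740444-73740568, plus strand): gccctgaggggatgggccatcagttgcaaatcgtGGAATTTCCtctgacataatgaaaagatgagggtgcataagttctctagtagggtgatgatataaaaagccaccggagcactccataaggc
CXCL1 (chr4:73869268-73869392, plus strand): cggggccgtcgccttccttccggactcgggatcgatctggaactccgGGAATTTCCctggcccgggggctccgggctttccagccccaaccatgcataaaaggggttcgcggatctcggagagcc
CXCL2 (chr4:74099196-74099320, minus strand): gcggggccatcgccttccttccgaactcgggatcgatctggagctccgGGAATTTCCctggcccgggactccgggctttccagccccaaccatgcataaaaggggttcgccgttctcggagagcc
CXCL3 (chr4:74038690-74038814, minus strand): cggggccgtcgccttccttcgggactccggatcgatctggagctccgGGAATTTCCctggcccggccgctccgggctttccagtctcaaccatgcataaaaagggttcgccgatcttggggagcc
IL6 (chr7:22727075-22727199, plus strand): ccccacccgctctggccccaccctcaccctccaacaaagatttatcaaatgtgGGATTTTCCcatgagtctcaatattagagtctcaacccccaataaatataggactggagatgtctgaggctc
IL11 (chr19:55370464-55370588, minus strand): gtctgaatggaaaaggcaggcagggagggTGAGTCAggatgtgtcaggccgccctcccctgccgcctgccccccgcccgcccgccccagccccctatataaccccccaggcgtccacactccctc

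The motif GGANTTTCC, searched on both strands, was in 5 of the 6 windows and in 1.64% of all 35116 windows of this length. It was chosen after these sequences were seen. It began 91 bases before the start site in CXCL8, 78 in CXCL1, 77 in CXCL2, 78 in CXCL3 and 72 in IL6. The form with 1 more G in front was in the windows of CXCL1, CXCL2, CXCL3 and IL6 and in 0.558% of all windows. The AP-1 motif TGANTCA, bound by FOS and JUN proteins, was in the windows of CXCL8 and IL11 and in 7.71% of all windows. The TGACGT half-site of CREB-type factors was in those of CXCL2 and IL6 (7.98% of all), and the C/EBP-type motif TTGCNNAA also in those of CXCL2 and IL6 (10.5% of all). The palindromic estrogen response element was in none of the 6 windows and in 20 of all 35116. A match describes letters and not a bound site. CXCL1 and CXCL3 had the same base at 253 positions of their aligned windows of 300 bases, CXCL2 and CXCL3 at 235 and CXCL1 and CXCL2 at 229.

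Values are log2 numbers centred near 0 on a baseline that is not stated, so only differences within a probe set are read, and higher is assumed to mean more RNA. Across all probe sets the SD was 0.20 for vehicle, 0.47 for estradiol and 0.46 for tamoxifen. Differences from vehicle are therefore also given with the vehicle value doubled, and which setting is closer to the true difference was not tested. In that setting a baseline shared by the columns would not drop out. A brightness floor was read from the binary steps of the stored numbers and kept probe sets at a level of about 4 or more (log2), which left 12067 of 19775 named genes. The markers of breast epithelium and of the line were all above it (12 of 12 genes), against 2 of 10 leukocyte markers, PTPRC and CSF1R, and 4 of 9 fibroblast and endothelial markers. The 24 probe sets of the poly-A spikes, which are bacterial control RNAs, had median differences from vehicle of 1.04 (estradiol) and 0.87 (tamoxifen). Doubling the vehicle, these medians were 0.47 and 0.39. The hybridisation spikes differed by medians of 0.18 and 0.10, which rose to 0.32 and 0.23 with the vehicle doubled. The 5′ probe set of ACTB was lower with tamoxifen than with vehicle by a difference of -1.08, and its 3′ probe set differed by -0.18; the GAPDH pair differed by -0.26 and -0.10. With estradiol the ACTB pair differed by -0.08 and -0.13. The part of the spikes and of the 5′ signal in the results below was not tested.

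CXCL8, the chemokine also called interleukin-8, had both of its probe sets in the brightest band. The probe set 202859_x_at read -1.06 with vehicle, 0.77 with estradiol and 0.36 with tamoxifen. The other, 211506_s_at, read 0.48, 3.12 and 2.13 in the same order. Both put estradiol highest, tamoxifen next and vehicle lowest. Against vehicle the first was 3.56-fold higher with estradiol and 2.68-fold with tamoxifen, and the second 6.21-fold and 3.13-fold. Their estradiol differences (1.83 and 2.63) lay 0.80 apart, which compares with a median gap of 0.25 and a 95th percentile of 0.83 over 2517 genes with a pair of probe sets in their brightest band. Over the 17 such genes past 2-fold with estradiol the median gap was 0.50 and the 95th percentile 1.08. The order of the probe sets turned when the vehicle was doubled, to 2.89 for the first and 2.15 for the second.

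CXCL1, CXCL2 and CXCL3 encode the GRO chemokines, which are close copies of one another. CXCL1 was measured by 1 probe set, 204470_at, which read -0.63 with vehicle, 1.1 with estradiol and 0.74 with tamoxifen. CXCL2 had 3 probe sets, of which only 209774_x_at was above the floor, with -0.68, 1.19 and 0.53. These differences came to 3.33-fold and 2.59-fold for CXCL1 and to 3.65-fold and 2.31-fold for CXCL2, estradiol first. The suffix _x_at marks a probe set that may also bind related transcripts, so the CXCL2 value cannot be separated from that of its copies. The CXCL8 probe set 202859_x_at carries the same suffix, so it too may bind related transcripts. The other CXCL2 probe sets lay in the dimmest band, and their differences from vehicle were -0.18 and 0.24 with estradiol and -0.29 and -0.04 with tamoxifen.

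CXCL3 had a single probe set, 207850_at, in the band between 2 and 4 and so below the floor. It read -0.45 with vehicle, 0.29 with estradiol and 0.15 with tamoxifen. The order of the 3 columns was that of CXCL1 and CXCL2, with smaller differences from vehicle of 0.74 and 0.60.

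IL6, an inflammatory cytokine that drives acute-phase and STAT3 responses, was measured by 205207_at. It read 0.37 with vehicle, 2.49 with estradiol and 1.68 with tamoxifen. The differences from vehicle were 2.12 and 1.31, or 4.34-fold and 2.48-fold. IL6 and the CXCL8 probe set 211506_s_at were the members above the floor with a vehicle value over 0, and doubling the vehicle lowered their differences, for IL6 to 1.75 and 0.94. It raised those of CXCL1 to 2.36 and 2.00 and those of CXCL2 to 2.55 and 1.89.

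LIF, named for its effect on leukaemia cells, and IL11, a cytokine studied in bone and fibrosis, did not share the pattern of IL6. The LIF probe set 205266_at, in the brightest band, read -0.05 with vehicle, 0.29 with estradiol and 0.02 with tamoxifen. The differences of 0.34 and 0.08 were within 1.5-fold, and they were 0.39 and 0.13 with the vehicle doubled. LIF kept the order of the chemokines, with estradiol highest, at a much smaller size.

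The IL11 probe sets did not give the same picture. The probe set 206924_at read -1.33 with vehicle, -2.12 with estradiol and -1.11 with tamoxifen, so that estradiol was lowest. The other, 206926_s_at, read -0.21, -0.26 and -0.32, with all 3 columns close together. Against vehicle the first differed by -0.79 with estradiol and 0.22 with tamoxifen. With the vehicle doubled these became 0.54 and 1.55, so the sign of its estradiol difference depends on how the vehicle column is scaled. Its tamoxifen value was 2.01-fold above its estradiol value, a difference of 1.01 that does not use the vehicle column, against -0.06 for the other probe set. That gap of 1.07 exceeded the 95th percentile of 0.70 for genes with a pair of probe sets.

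**Figure D1:**
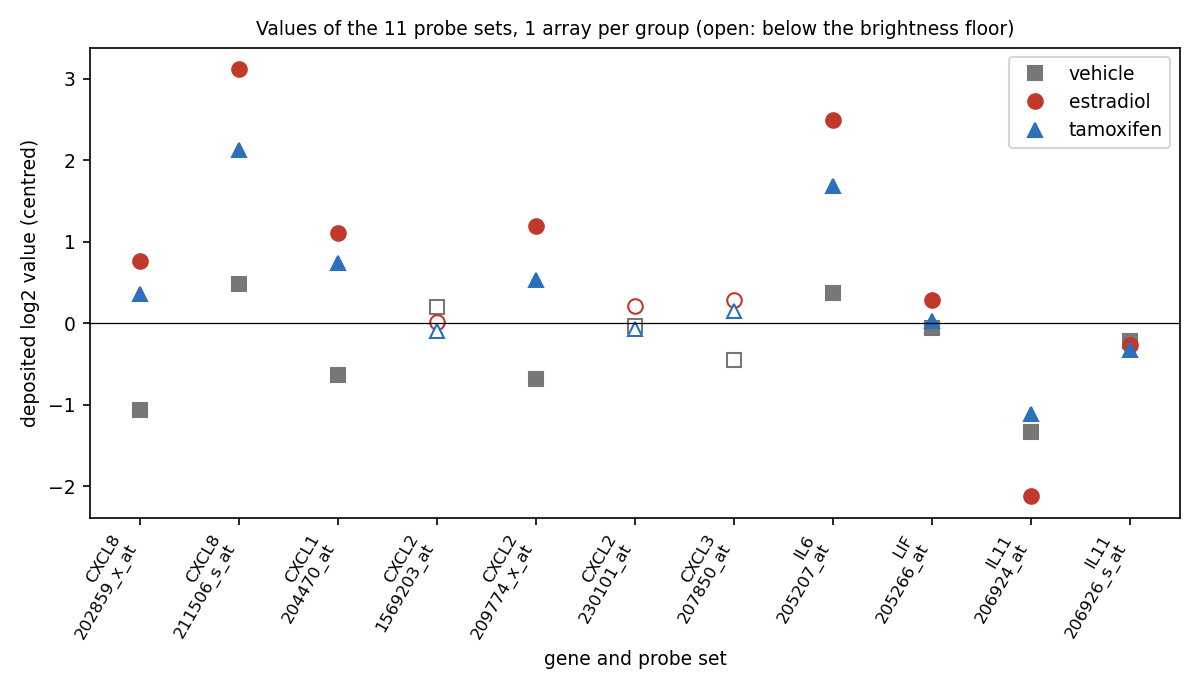
Deposited log2 values (centred, y axis) of the 11 probe sets (x axis) in the vehicle, estradiol and tamoxifen columns, 1 array each; open symbols lie below the brightness floor. In both CXCL8 probe sets, CXCL1, the CXCL2 probe set 209774_x_at, CXCL3, IL6 and LIF the order is estradiol, tamoxifen, vehicle from the top, and in the IL11 probe set 206924_at estradiol is lowest at -2.12.

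For each gene the value was the mean over the probe sets in its brightest band, and 6 of the 7 genes lay above the floor. With estradiol, 4 of these 6 were at least 1.5-fold (0.58 on the log2 scale) higher than with vehicle, while 5.83% of all 12067 genes were. They were CXCL8 (2.23), IL6 (2.12), CXCL2 (1.87) and CXCL1 (1.73), and all 4 also passed 2-fold, which 1.1% of all genes did. The median difference was 1.80 over the 6 genes and 0.02 over all genes. From the highest, CXCL8 ranked 6 among the 12067 genes, IL6 10, CXCL2 15 and CXCL1 20. LIF ranked 1987, and IL11 (-0.42) ranked 820 from the lowest. None of the 6 was at least 1.5-fold lower, as 2.65% of all genes were. After doubling of the vehicle the same 4 genes passed 1.5-fold, against 4.39% of all genes. CXCL2 then ranked 1, CXCL8 2, CXCL1 3 and IL6 4. In a bulk culture, more cells transcribing a gene and more RNA per cell cannot be told apart.

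With tamoxifen, the same 4 of 6 genes were at least 1.5-fold higher than with vehicle, while 6.97% of all genes were. CXCL8 differed by 1.53, CXCL1 by 1.37, IL6 by 1.31 and CXCL2 by 1.21, and these 4 passed 2-fold as 1.23% of all genes did. The median was 1.26 over the 6 genes and 0.02 over all genes. CXCL8 ranked 22 from the highest, CXCL1 35, IL6 46 and CXCL2 63. LIF (0.08) and IL11 (0.05) lay near the middle, at ranks 5179 and 5524. None of the 6 was at least 1.5-fold lower, as 4.33% of all genes were. With the vehicle doubled, 5 of the 6 genes passed 1.5-fold, the added one being IL11 (0.82), against 7.14% of all genes. That IL11 value is the mean of 1.55 for 206924_at and 0.10 for 206926_s_at. CXCL1 then ranked 2, CXCL2 4, CXCL8 5 and IL6 144, and 3 of the 6 passed 2-fold, IL6 (0.94) no longer among them. Both comparisons with vehicle use the same vehicle column, so the genes they have in common are not independent evidence.

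**Figure D2:**
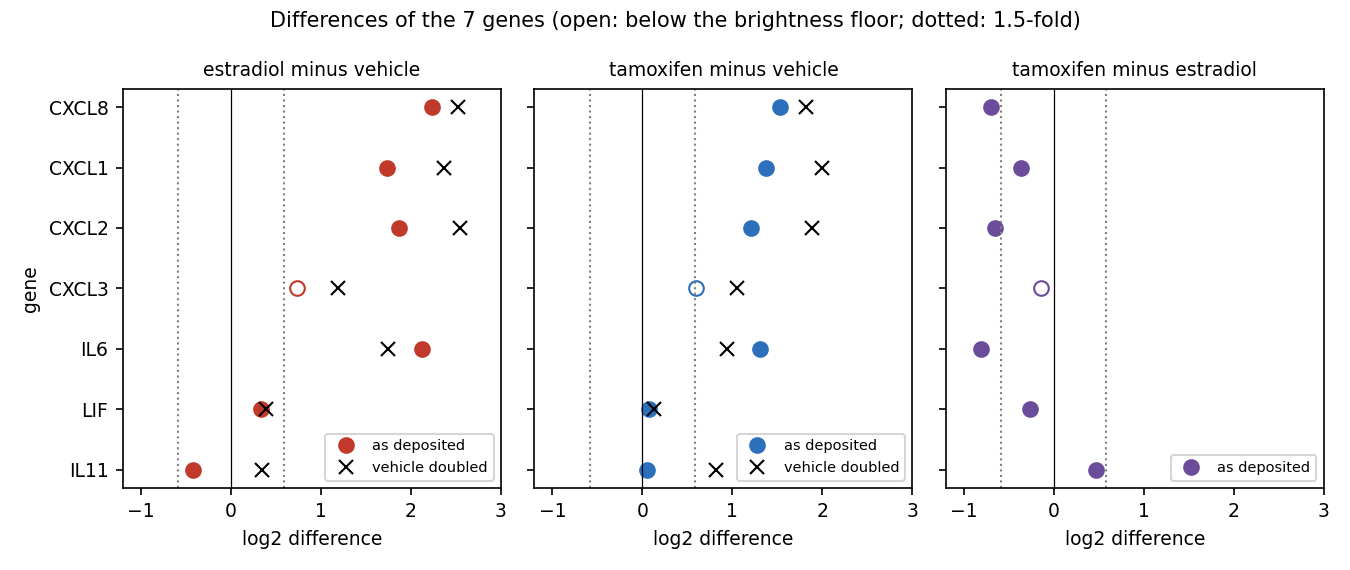
Log2 differences (x axis) of the 7 genes (y axis) for each pair of columns, as deposited (circles, open below the floor) and with the vehicle value doubled (crosses); dotted lines mark 1.5-fold. CXCL8, CXCL1, CXCL2 and IL6 lie right of the line with both ligands in both settings, and IL11 moves from -0.42 to 0.35 in the estradiol panel.

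Estradiol and tamoxifen were given at the same dose and time, and their direct comparison leaves out the vehicle column. It shares the estradiol and tamoxifen columns with the comparisons above, so it is not independent evidence either. Of the 6 genes, 3 were at least 1.5-fold lower with tamoxifen than with estradiol, while 2.2% of all genes were. IL6 differed by -0.81, CXCL8 by -0.70 and CXCL2 by -0.66, or 1.75-fold, 1.62-fold and 1.58-fold. CXCL1 (-0.36), LIF (-0.26) and CXCL3 (-0.14, below the floor) were also lower with tamoxifen, within 1.5-fold. None of the 6 passed 2-fold, as 0.24% of all genes did downward. The CXCL8 probe sets gave -0.41 and -0.99, a gap of 0.58 against a median of 0.20 over genes with a pair of probe sets. IL11 was the only member above its estradiol value with tamoxifen (0.47, the mean of 1.01 and -0.06 for its probe sets). That was within 1.5-fold, a size that 1.57% of all genes passed upward. The median was -0.51 over the 6 genes and -0.02 over all genes. In this pair of columns the poly-A spikes differed by a median of -0.17, and the 5′ probe set of ACTB by -1.0.

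**Figure D3:**
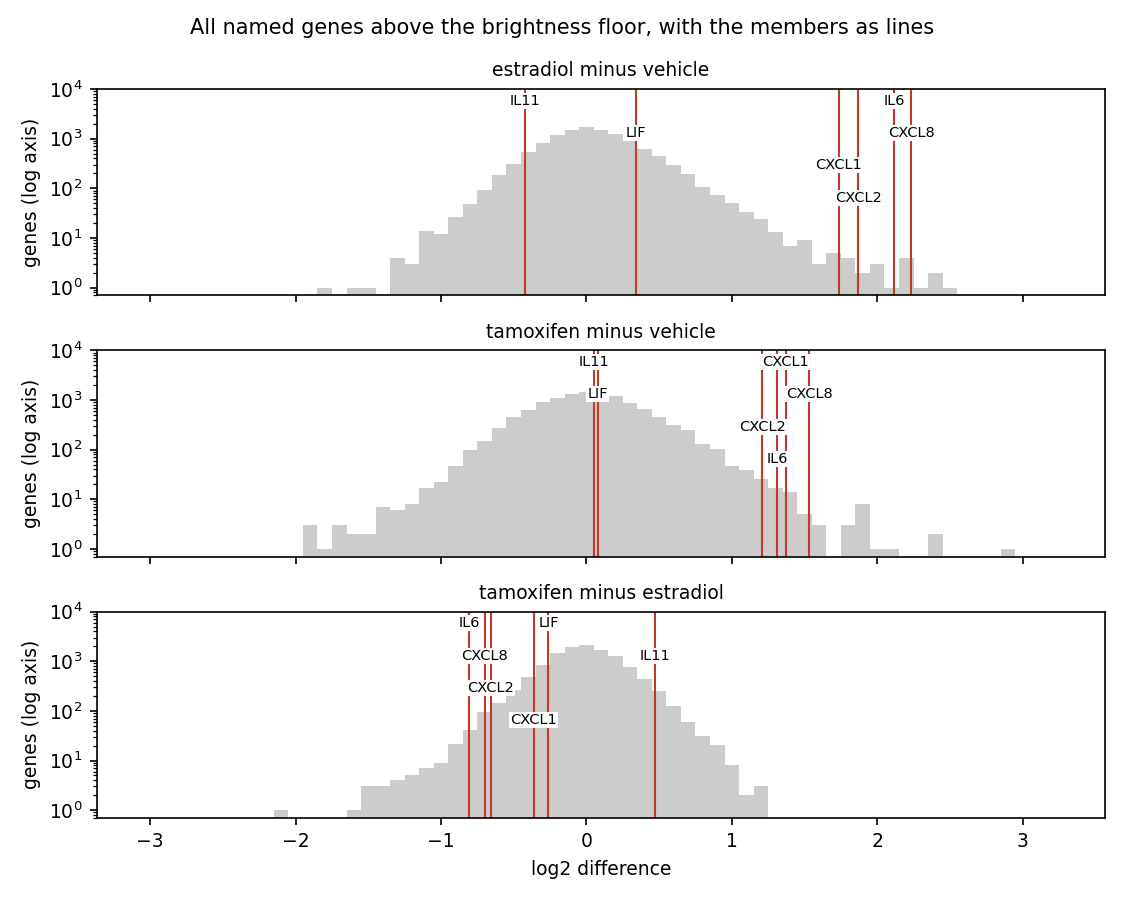
Number of named genes above the floor (y axis, log scale) by log2 difference (x axis) in each of the 3 comparisons, with the 6 members above the floor as vertical lines. IL6 and CXCL8 lie at 2.12 and 2.23 in the estradiol panel, in the upper tail, and at -0.81 and -0.70 in the panel of tamoxifen minus estradiol.

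The 4 chemokine genes lie in one cluster on chromosome 4, in the order CXCL8, CXCL1, CXCL3 and CXCL2 by RefSeq. Between them lie CXCL6 and CXCL5, which also draw neutrophils, and the platelet chemokine genes PF4V1, PF4 and PPBP. None of these 5 had a probe set above the floor. CXCL6 differed from vehicle by 0.35 with estradiol and 0.31 with tamoxifen, and CXCL5 by 0.06 and -0.21. PF4V1 (0.31 and 0.03), PPBP (-0.11 and -0.15) and PF4 (-0.19 and 0.07) were also within 1.5-fold. The windows of CXCL5 and CXCL6 held the motif GGANTTTCC, as those of the 4 members did, and the windows of PF4V1 and PPBP did not. CXCL5 and CXCL6 were in the dimmest band, and with the vehicle doubled CXCL6 stood at 0.56 with estradiol and 0.52 with tamoxifen. Whether the motif has a part in these values was not tested.

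**Figure D4:**
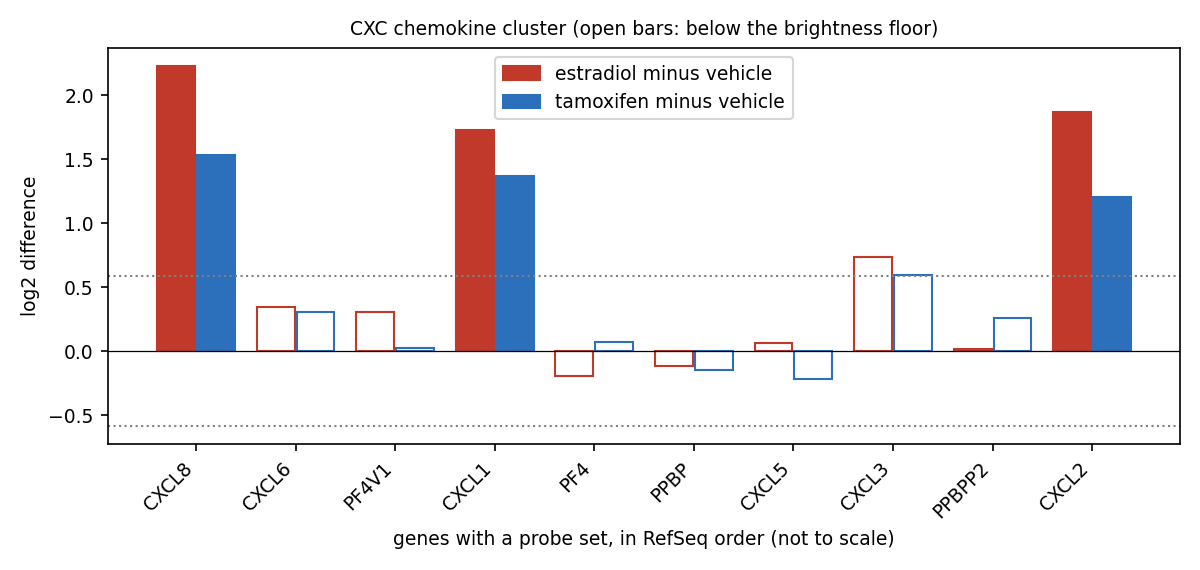
Log2 differences from vehicle (y axis) with estradiol and tamoxifen for the genes of the chromosome 4 chemokine cluster that have a probe set, in RefSeq order (x axis, not to scale); open bars lie below the brightness floor. The filled bars of CXCL8, CXCL1 and CXCL2 stand between 1.21 and 2.23, and CXCL3 is the only open pair that reaches the dotted 1.5-fold line.

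Other ligands of the same families were mostly dim. Of 20 other chemokine genes, 5 lay above the floor and 1 passed 1.5-fold upward with each ligand. This was CXCL11, an interferon-induced chemokine for T cells, at 1.46 with estradiol and 0.74 with tamoxifen, and at 0.23 and -0.49 with the vehicle doubled. In that setting none of the 5 passed with estradiol, while with tamoxifen CXCL9 (0.61) passed upward and CCL5 (-0.80) downward. Of the other IL6-family cytokines, CTF1 alone of 5 was above the floor, at 0.16 and -0.20. Among 6 other inflammatory cytokines above the floor, 3 were past 1.5-fold upward with estradiol and 1 downward (5.83% and 2.65% of all genes). CSF1, the macrophage growth factor, differed by 1.56 with estradiol and 1.0 with tamoxifen, IL15 by 1.07 and 0.40, IL24 by 0.73 and 0.36, and IL18 by -0.69 and -0.64. In the doubled setting CSF1 stood at 1.04 and 0.48 and IL15 at 0.59 and -0.08, while IL24 (0.27 and -0.10) and IL18 (0.06 and 0.11) were within 1.5-fold.

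The probe sets of the receptors for the members lay in differing brightness bands. A place above the floor does not show that a receptor is made, as 14 of 107 olfactory receptor probe sets lay there. CXCR1, a receptor for CXCL8, was above the floor and differed from vehicle by -0.22 with estradiol and -0.27 with tamoxifen. CXCR2, which binds all 4 chemokines, lay in the dimmest band, at -0.02 and 0.50. IL6R, the IL6-binding subunit, was below the floor (-0.31 and -0.27), and the shared subunit IL6ST was in the brightest band (0.46 and 0.40). IL11RA differed by -0.27 and -0.09. LIFR, the receptor for LIF, was at 0.47 with estradiol and 1.19 with tamoxifen. It was the 1 gene of 7 IL6-family receptors above the floor to pass 1.5-fold upward with tamoxifen, as 6.97% of all genes did. Its tamoxifen value exceeded its estradiol value by 0.72.

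JAK and STAT genes carry the signal on from the IL6-family receptors. Of 11 of them and their inhibitors above the floor, none passed 1.5-fold with estradiol and 1 did upward with tamoxifen (6.97% of all genes). This was SOCS1, a feedback inhibitor of JAK kinases, at 0.16 and 0.70. Of 6 STAT3 target genes, CEBPD, a C/EBP transcription factor, passed it with estradiol (0.61) and stood at 0.27 with tamoxifen. Of all genes, 5.83% passed it upward with estradiol. The medians of these lists were -0.03 and 0.19 with estradiol and 0.07 and 0.02 with tamoxifen.

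Of 16 genes for NF-kB subunits and inhibitors above the floor, 2 were past 1.5-fold upward with estradiol (5.83% of all genes). They were the subunit genes RELB (0.75) and NFKB1 (0.61), which stood at 0.01 and 0.10 with tamoxifen. With tamoxifen 1 of the 16 passed downward, TNIP1, which encodes a partner of the inhibitor TNFAIP3, at -0.61 against -0.05 with estradiol. Of all genes, 4.33% passed downward with tamoxifen. The list's medians were 0.02 and -0.05. In the doubled setting the inhibitor genes NFKBIA (0.78) and TNFAIP3 (0.66) and RELB (0.70) were past the rule upward with estradiol, and NFKB1 was just short of it. With tamoxifen the kinase gene CHUK (0.83) and TNFAIP3 (0.60) were then higher past the rule, and TNIP1 (-0.74) and NFKB2 (-0.60) lower. In that setting 4.39% of all genes passed upward with estradiol and 7.14% with tamoxifen. RELB was lower with tamoxifen than with estradiol by a difference of -0.74, and NFKB1 by -0.51.

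Of 10 upstream receptors and adaptors above the floor, 3 were past 1.5-fold upward with estradiol and 1 with tamoxifen (5.83% and 6.97% of all genes). IL1RAP, the accessory subunit of the interleukin-1 receptor, differed by 1.40 and 1.36, the Toll-like receptor gene TLR2 by 0.76 and 0.58, and the kinase gene IRAK2 by 0.71 and 0.41. The TLR2 tamoxifen difference was just short of the 1.5-fold rule. Of 10 regulators of AU-rich mRNA, a class of unstable messages that includes those of CXCL8 and IL6, none passed 1.5-fold in any of the 3 comparisons as deposited. Their medians were -0.02 with estradiol and 0.16 with tamoxifen.

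**Figure D5:**
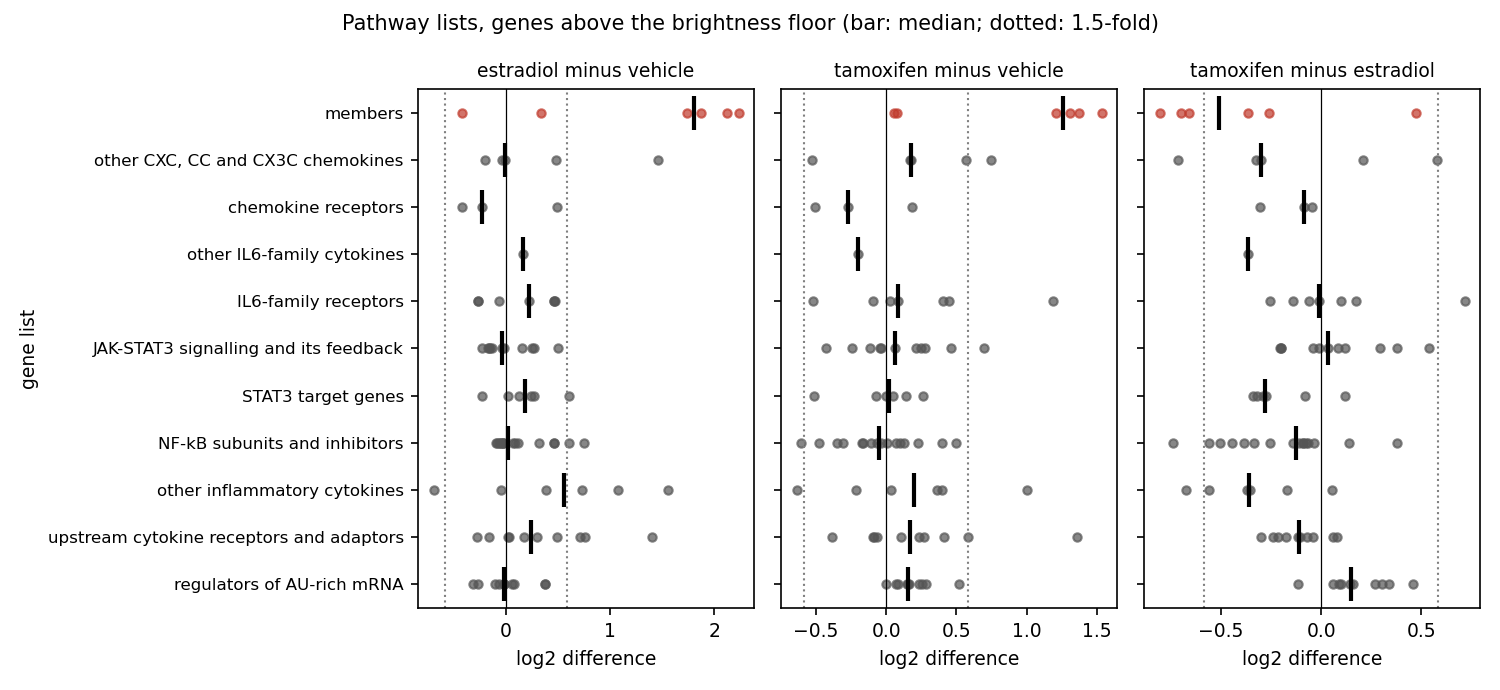
Log2 differences (x axis) of the genes above the floor in the members' list (top row) and 10 pathway lists (y axis) for each pair of columns; points are genes, black bars medians, dotted lines 1.5-fold. The members' median is 1.80 in the estradiol panel, and the NF-kB list spreads around 0.02 with RELB at 0.75.

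The genes most like each member were taken as those with the smallest Euclidean distance between pairs of differences from vehicle, over the 3 columns. For CXCL8 they were SDR16C5 (distance 0.172), PTGS2 (0.258) and AGR2 (0.353), while IL6 lay at 0.250. For IL6 they were SDR16C5 (0.221), PTGS2 (0.338) and MAL2 (0.348). For CXCL1 they were SCG2 (0.230), MAL2 (0.260) and ABCA1 (0.276), and for CXCL2 MAL2 (0.0958), MAGEC1 (0.314) and PLAAT4 (0.340). CXCL1 and CXCL2 lay 0.210 apart. In the doubled setting, PTGS2, the inducible cyclooxygenase, stood at 1.22 and 0.85 and SCG2 at 0.96 and 0.89. MAL2 stood at -0.42 and -1.12, AGR2 at 0.09 and -0.11 and ABCA1 at 0.14 and 0.03. SDR16C5 was at 0.58 and -0.36, MAGEC1 at 0.63 and 0.04 and PLAAT4 at 0.30 and -0.10. All of these genes, PTGS2 and SCG2 included, were then below CXCL8, CXCL1, CXCL2 and IL6 with both ligands. Doubling subtracts each gene's vehicle value once more, so this order depends on the vehicle values. LIF and IL11 lay where genes are dense, with NBPF1, ZNF311 and WWC3 within 0.0112 of LIF and SMAD6, CCDC85C and GALK1 within 0.0187 of IL11.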

How the data were processed

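Biotin-labelled total RNA was hybridised to Affymetrix arrays, per the labels' protocols. The submitters' processing notes name RMA, with no version. The deposited log2 values had column medians of -0.04, -0.02 and -0.02 (vehicle, estradiol, tamoxifen), so they are centred and not RMA levels. Log base, baseline, direction and any pooling of arrays are not given in the sources used here. RMA uses base 2, which was assumed. The number of arrays limits the precision.

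Each stored number was assigned its finest binary step, the vehicle's shifted by 1, which gave brightness bands of 8 or more (7403 probe sets), 4 to 8 (17231), 2 to 4 (18363) and under 2 (11678). The band was set by the finest step among the columns, so a probe set dim in 1 column could fall below the floor. The floor kept the upper 2 bands, with 119 of 145 ribosomal protein probe sets and 14 of 107 olfactory receptor probe sets. The platform annotation gave 1 symbol to 41097 probe sets, several to 1801 and none to 11777, and only those with 1 were named. Of the 41043 with a RefSeq match, 0 needed a new symbol.

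Differences were taken within probe sets, and genes were the mean over their brightest band. The size rule was 1.5-fold. Named were all members, 6 receptors whatever their values, up to 4 genes past the rule per list, and 3 nearest genes per member. Genes singled out beyond this, such as those of the chromosome 4 cluster, CTF1, CSF1R, NFKBIA, TNFAIP3, CHUK, NFKB2, CXCL9 and CCL5, were picked once their values had been seen. The members, lists and rules were chosen with earlier results of these data known. Only the reading of the bands and the differences of estradiol from vehicle were tried on simulated data. The simulated vehicle was an average of arrays, so this check cannot show how the real vehicle column was made. Python 3.11.15, pandas 2.3.3 and Biopython 1.88 were used.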

Additional observations from a re-analysis of the deposited data

How the results depend on the processing

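With 1 array per group no error could be estimated, and no replicate could be left out. No paired analysis was possible because each group had 1 array. The count of members at least 1.5-fold higher was 4 or 5 with estradiol and 3 to 5 with tamoxifen under no floor, means of all probe sets, medians, either centring, the vehicle doubled or a 2-fold rule. Under all of these but the last and the doubling, which does not bear on it, 2 or 3 members were lower in tamoxifen minus estradiol. Of all genes, 4.10% to 5.53% were past 1.5-fold upward with estradiol in these settings and 4.54% to 7.14% with tamoxifen. At 2-fold these shares were 1.10% and 1.23%. In tamoxifen minus estradiol 1.52% to 2.85% of all genes were at least 1.5-fold lower. CXCL2 with tamoxifen was lost with the mean of all probe sets (0.29). A floor of 8 left 2 genes, of which CXCL8 passed in each of the 3 comparisons (1, 1 and 1). With that floor 5.08%, 6.57% and 1.45% of all genes passed. Without _x_at and _s_at probe sets CXCL8 had none left and CXCL2 and CXCL3 none above the floor. Of the 4 genes left, 2 passed with estradiol, 2 with tamoxifen (CXCL1 and IL6 in both) and 1 in tamoxifen minus estradiol (IL6). The shares of all genes were then 5.79%, 7.37% and 2.37%. At 2-fold, 0 members passed in tamoxifen minus estradiol, as 0.24% of all genes did. The estradiol difference of the IL11 probe set 206924_at reversed from -0.79 to 0.54 with the vehicle doubled.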

Other observations

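Genes outside the 7 whose start-site window holds the motif GGANTTTCC were also described. There were 224 such genes above the floor, set beside 9619 with a window and no match. With estradiol 22 of them were at least 1.5-fold higher (9.82%, against 5.62% of the others) and 5 lower (2.23% against 2.57%). With tamoxifen 22 were higher (9.82% against 6.87%) and 14 lower (6.25% against 4.12%). In tamoxifen minus estradiol 2 were higher (0.893% against 1.55%) and 9 lower (4.02% against 1.85%). With the vehicle doubled 6.70% were higher with estradiol (4.24% of the others) and 5.36% with tamoxifen (7.11% of the others). The medians were 0.06 with estradiol, 0.04 with tamoxifen and -0.07 in tamoxifen minus estradiol, against 0.03, 0.02 and -0.02. The motif was picked from the members' own windows, and no test was made.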
